A study of Mus musculus with 40 samples.

Results

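Collagens are extracellular matrix proteins built from chains that wind into triple helices, and the mouse collagen gene family was followed here in uterus RNA. Members were the protein-coding genes of the deposited table whose symbol had the form Col, a type number, a and a chain number, which gave 44 of 54532 genes. They comprised 11 fibrillar genes, 8 basement membrane genes and 25 genes of other types. The study sequenced whole uteri of prepubertal mice (postnatal day 25) in bulk, with 5 libraries in each of 8 groups and 40 libraries in all. Control mice received PBS or saline. Doxorubicin mice received 2 weekly doses of doxorubicin at 3 mg/kg. Mice of the combined group received 2 weekly doses of doxorubicin at 3 mg/kg together with AMH at 0.75 mg/kg, and a further group received AMH alone at 0.75 mg/kg. Each of these 4 treatments was harvested at 4 h and at 24 h. Doxorubicin is an anthracycline used in chemotherapy that poisons topoisomerase II. AMH, anti-Müllerian hormone, is a TGF-beta family hormone made by the gonads that acts on reproductive tissues. Libraries are labelled as numbered biological replicates, with no statement of 1 mouse per library, so p-values measure the spread between these libraries.

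Fibrillar collagens (types I, II, III, V, XI, XXIV and XXVII) form the load-bearing fibrils of connective tissue, and type V chains sit inside type I fibrils and limit their diameter. Type IV collagens form the sheet-like network of basement membranes, which types XV and XVIII bind. The remaining types make beaded filaments around cells (type VI), decorate fibrils (the fibril-associated FACIT types IX, XII, XIV, XVI, XIX, XX and XXII), anchor epithelia (types VII and XVII) or span the cell membrane (types XIII, XVII, XXIII and XXV). In the uterus, fibroblasts of the stroma and smooth muscle cells of the myometrium make most fibrillar collagen, and collagen content is known to respond to ovarian hormones. In bulk tissue, fewer cells of a type and less RNA per cell cannot be told apart.

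Levels are FPKM, fragments per kilobase of gene scaled for library size, so they can be compared between genes. A gene was tested where it reached 1 FPKM in at least 5 of 40 libraries, which 34 of the 44 collagen genes did (9 fibrillar, 8 basement membrane and 17 other). Tests were made with limma on log2(FPKM + 1), and a gene is called higher or lower below an adjusted p of 0.05. A change on this scale understates that of genes with low values. Libraries held 16251563 to 27391049 reads in genes. All of the smooth muscle (10), stromal fibroblast (9, Hoxa10 and Hoxa11 among them) and epithelium (7) marker genes passed the same minimum. A score over 31 oestrogen-responsive uterine genes (their mean log2(FPKM + 1)) exceeded its median over the libraries by more than 0.6 in 7 of 40: control 24 h libraries 1, 2 and 4, doxorubicin 24 h libraries 1 and 4, doxorubicin 4 h library 2 and AMH 24 h library 3. These are called high-oestrogen libraries. A score over oviduct and ciliated cell markers stood more than 1 above the median in 8 of 40 libraries, 3 of them in the doxorubicin 24 h group, which are called high-oviduct libraries. Counts of collagen genes are given with all libraries. For the 3 comparisons of treatments with calls they are also given without each set that the compared groups hold. The members that lost their calls are given with their changes after the account of the 3 classes. Counts without the high-oestrogen libraries are not given for AMH against control at 24 h or between the controls. Other genes are given with all libraries only.

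The proximal promoters of 5 members are printed because these genes recur in the results. Col3a1 and Col5a1 are fibrillar genes with lower values after treatment, Col5a3 kept its call for doxorubicin with AMH at 24 h without the high-oestrogen libraries, Col6a3 had the largest decreases of the family and Col23a1 increased. Each window is the 150 bases before the RefSeq start of the gene on its own strand (RefSeq, build GRCm38.p6), 5′ to 3′, and holds no annotated exon. Capitals mark the GC box GGGCGG, the CCAAT box and the TATA box TATAAA on either strand, and these motifs do not overlap each other.
Col3a1, chr1:45311388-45311537, plus strand: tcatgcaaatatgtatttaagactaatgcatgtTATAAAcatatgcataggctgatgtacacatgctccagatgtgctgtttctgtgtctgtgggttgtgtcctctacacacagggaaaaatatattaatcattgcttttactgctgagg
Col5a1, chr2:27886275-27886424, plus strand: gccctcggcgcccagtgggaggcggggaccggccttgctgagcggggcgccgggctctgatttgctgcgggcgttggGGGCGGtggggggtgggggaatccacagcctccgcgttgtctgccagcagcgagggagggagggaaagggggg
Col5a3, chr9:20815068-20815217, minus strand: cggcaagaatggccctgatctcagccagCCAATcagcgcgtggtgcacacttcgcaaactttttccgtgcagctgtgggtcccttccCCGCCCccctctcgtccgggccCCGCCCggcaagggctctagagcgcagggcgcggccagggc
Col6a3, chr1:90843972-90844121, minus strand: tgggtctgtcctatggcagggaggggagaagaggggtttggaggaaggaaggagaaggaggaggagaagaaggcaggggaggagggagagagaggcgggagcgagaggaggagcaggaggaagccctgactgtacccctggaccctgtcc
Col23a1, chr11:51289770-51289919, plus strand: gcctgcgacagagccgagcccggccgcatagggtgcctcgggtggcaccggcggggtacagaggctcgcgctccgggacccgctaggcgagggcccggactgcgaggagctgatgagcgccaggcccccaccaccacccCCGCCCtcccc
The Col3a1 window held TATAAA 117 bases before the start and had a GC content of 37.3%. The other windows were GC-rich, with 74.7% for Col5a1, 68.7% for Col5a3, 62.7% for Col6a3 and 76.7% for Col23a1. GGGCGG or its complement lay 73 bases before the start of Col5a1, 63 and 41 bases before that of Col5a3 and 11 bases before that of Col23a1, and Col5a3 also had CCAAT at 122 bases. None of the 3 motifs was in the Col6a3 window. RefSeq entries matched 35 of the 44 members with 38 windows. The median GC content of these windows was 62.7%, against 54.0% for all 32851 windows of the same length. GGGCGG, which holds only G and C, was in 19 of the 38 windows against 28.6% of all windows, and the part of GC content in this was not tested. CCAAT was in 8 of 38 against 24.5% of all windows, and TATAAA in 4 of 38 against 7.57%. A motif match is a description of the letters and not of a bound factor.

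The most abundant members over all 40 libraries were the type I, III and VI chains: Col1a1 averaged 815 FPKM, Col3a1 634, Col6a1 472, Col1a2 363 and Col6a2 258. Col6a4, a type VI chain that takes the place of the third chain, averaged 159.6 FPKM and stood above Col6a3 at 62.4. Among basement membrane genes Col4a1 averaged 114 FPKM, Col15a1 96.5, Col4a2 91.6 and Col18a1 61.6, while Col4a5 averaged 23.5, Col4a6 10.9, Col4a4 3.83 and Col4a3 2.81. The 10 members below the minimum were Col2a1, Col8a1, Col9a1, Col9a3, Col10a1, Col19a1, Col22a1, Col24a1, Col25a1 and Col28a1, with means from 0.00523 FPKM (Col19a1) to 0.57 FPKM (Col8a1). They include the cartilage genes Col2a1 (type II) and Col10a1 (type X), and Col10a1 and Col19a1 had no read in 20 and 28 of 40 libraries. Of 3 further members near the minimum, Col6a5 averaged 0.741 FPKM, Col11a2 0.66 and Col11a1 1.03.

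Collagen transcripts took 3.37% ± 0.482 of all reads in genes in control uteri at 4 h and 3.36% ± 0.349 at 24 h (mean ± SD, n = 5). At 4 h the share was 3.43% ± 0.828 with doxorubicin, 2.49% ± 0.834 with doxorubicin and AMH, and 2.25% ± 0.296 with AMH. At 24 h it was 2.27% ± 0.58 with doxorubicin, 1.87% ± 0.264 with doxorubicin and AMH, and 2.67% ± 0.772 with AMH. The ranges of AMH (1.84% to 2.60%) and control (2.64% to 3.98%) at 4 h did not overlap, nor did those of doxorubicin with AMH (1.58% to 2.30%) and control (2.85% to 3.68%) at 24 h. Within the summed collagen FPKM, fibrillar genes made up 58.7% ± 1.95 in control and 52.2% ± 1.52 in AMH uteri at 4 h, and basement membrane genes 10.6% ± 0.803 and 14.4% ± 0.793.

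Collagen genes were called in 3 of the 6 comparisons with control, which share their control libraries at each time. At 4 h after AMH, 13 of 34 tested members were called, 5 higher and 8 lower, where 20.0% of all 16226 tested genes were called (9.13% higher, 10.9% lower). At 24 h after doxorubicin, 12 were called, 2 higher and 10 lower, where 18.4% of all tested genes were called (8.44% higher, 9.95% lower). At 24 h after doxorubicin with AMH, 19 were called, 5 higher and 14 lower, against 34.3% of all tested genes (15.7% higher, 18.6% lower). The median log2 change of the 9 tested fibrillar genes was -0.39, -0.58 and -0.91 in these comparisons, while the median of all tested genes was 0.00855, -0.0123 and -0.00473. For the 8 basement membrane genes it was 0.21, 0.02 and -0.05, and for the 17 other genes -0.21, -0.12 and -0.01. The heat map of changes shows every tested member in every comparison of treatments.

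**Figure D1:**
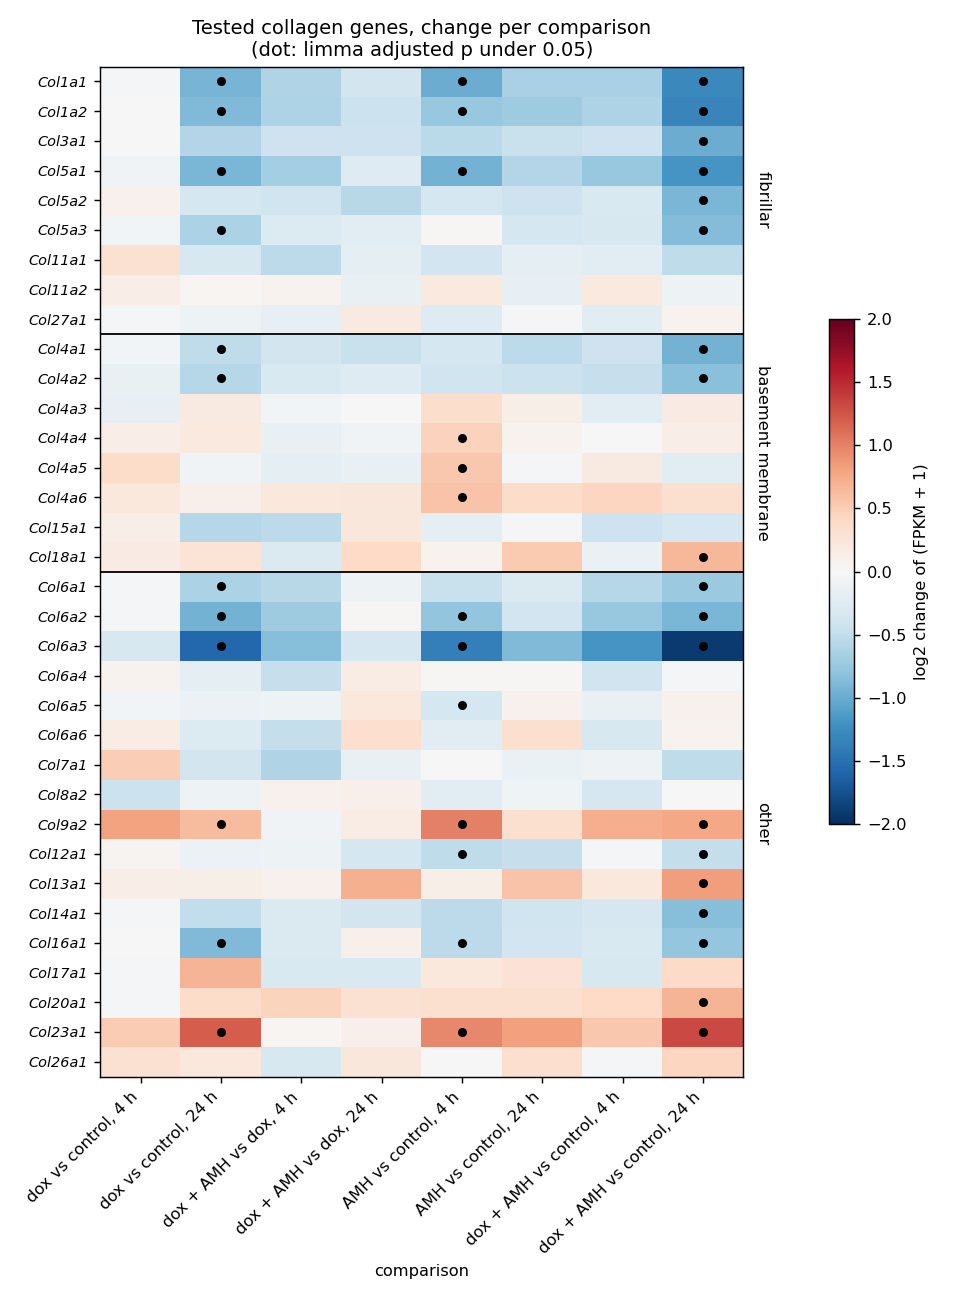
Change of the 34 tested collagen genes (rows of the map) in 8 comparisons of treatments (columns), as the difference in log2(FPKM + 1) from limma, blue for lower and red for higher, with a dot where the adjusted p was under 0.05. Dots lie in AMH against control at 4 h (13), doxorubicin against control at 24 h (12) and doxorubicin with AMH against control at 24 h (19), and in none of the other comparisons.

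Among fibrillar genes, the type I chains and Col5a1 fell 4 h after AMH, and type III and the other type V chains were lower without passing the test or about level. Col1a1 (chr11:94936224-94953042, build mm10), the chain that with Col1a2 makes type I collagen, stood at 1065, 1373, 773, 1205 and 1134 FPKM in control libraries 1 to 5 and at 535, 653, 581, 431 and 549 in AMH libraries 1 to 5. Every AMH library was below every control library, and Col1a1 fell from 1109.9 ± 221 to 549.9 ± 80.5 FPKM (log2 change -0.9998, SE 0.29, limma adjusted p = 0.0161). Col1a2 (chr6:4504814-4541544) stood at 466, 580.3, 339, 460.1 and 448 FPKM in control and 259, 306, 304, 221 and 259 in AMH libraries, again without overlap, and fell (log2 change -0.75, SE 0.25, limma adjusted p = 0.0307). Col5a1 (chr2:27886425-28039514), the main type V chain, stood at 106, 124, 64.7, 102 and 94.3 FPKM in control and 47.2, 59.4, 56.2, 39.6 and 46.1 in AMH libraries. These groups did not overlap, and Col5a1 fell by 0.95 on the log2 scale (SE 0.26, limma adjusted p = 0.0133). Its partner chain Col5a2 was 40.5 ± 6.71 FPKM in control and 31.9 ± 6.17 in AMH uteri (log2 change -0.34, SE 0.19, limma adjusted p = 0.203), and the groups overlapped. Col5a3, a type V chain of restricted distribution, was 16.7 ± 2.27 and 17.2 ± 3.28 FPKM, a difference of 0.03 on the log2 scale (limma adjusted p = 0.907). Col3a1 was 781 ± 143 FPKM in control and 543 ± 118 in AMH uteri (log2 change -0.53, SE 0.22, limma adjusted p = 0.0811). Of the low members, Col11a1 and Col27a1 had log2 changes of -0.39 and -0.25 and Col11a2 of 0.20, none of them called.

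At 24 h after doxorubicin the same type I chains, Col5a1 and also Col5a3 were lower than in control. Col1a1 stood at 1034, 1482, 956, 1334 and 888 FPKM in control and 813, 404, 585, 424 and 853 in doxorubicin libraries 1 to 5, and the highest treated library lay just under the lowest control library. It fell from 1139 ± 257 to 616 ± 211 FPKM (log2 change -0.93, SE 0.29, limma adjusted p = 0.0266). Col1a2 stood at 508, 686, 480.3, 599 and 411 FPKM in control and 412, 191, 276, 236 and 368 in doxorubicin libraries. Doxorubicin library 1 lay level with the lowest control library, the others below, and Col1a2 fell (log2 change -0.89, SE 0.25, limma adjusted p = 0.0166). Col5a1 was 99.8, 159.6, 88.4, 135 and 89.3 FPKM in control and 68.1, 46.1, 59.4, 38.9 and 92.6 in doxorubicin libraries. Only doxorubicin library 5 reached the control range, and Col5a1 fell (log2 change -0.92, SE 0.26, limma adjusted p = 0.0181). Col5a3 (chr9:20770050-20815067) was 20.4, 33.3, 28.7, 23 and 25.4 FPKM in control and 20, 15.2, 17.2, 14.1 and 15.3 in doxorubicin libraries, without overlap, and fell (log2 change -0.63, SE 0.15, limma adjusted p = 0.00754). The control level of Col5a3 had itself risen between 4 h and 24 h, from 16.7 ± 2.27 to 26.1 ± 5.04 FPKM (log2 change 0.61, SE 0.15, limma adjusted p = 0.0132), so that doxorubicin uteri at 24 h (16.4 ± 2.3) were near the 4 h controls. Col3a1 was 803 ± 129 and 543 ± 123 FPKM and missed the threshold (limma adjusted p = 0.0597).

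With doxorubicin and AMH together, 6 of 9 tested fibrillar genes fell against control at 24 h, and these were all chains of types I, III and V. Of all tested genes 18.6% were called lower there. Col1a1 stood at 401, 333, 439, 759 and 443 FPKM in libraries 1 to 5, all below the 24 h controls (log2 change -1.29, SE 0.29, limma adjusted p = 0.00181). Library 4 stood above the other 4 libraries of this group in Col1a1 and in Col5a1. Col1a2 stood at 194, 180.0, 216, 269.6 and 206 FPKM (log2 change -1.32, SE 0.25, limma adjusted p = 0.000479). Col3a1 (chr1:45311538-45349706) stood at 660.0, 963, 915, 750.1 and 728 FPKM in control and 393, 326, 442, 471 and 378 in doxorubicin with AMH libraries, which did not overlap, and fell (log2 change -0.99, SE 0.22, limma adjusted p = 0.00179). Col5a2, the type V chain that was not called after either agent alone, was 36.6, 54.1, 51.8, 41.3 and 43 FPKM in control and 23.4, 21.1, 26.1, 23 and 23.8 in doxorubicin with AMH libraries. It fell from 45.4 ± 7.35 to 23.5 ± 1.79 FPKM (log2 change -0.91, SE 0.19, limma adjusted p = 0.00134). Col5a1 and Col5a3 fell to 49.3 ± 10.5 and 13.7 ± 0.812 FPKM (limma adjusted p = 0.00176 and 0.000262). Col11a1 was 1.13 ± 0.446 and 0.475 ± 0.163 FPKM (limma adjusted p = 0.0685).

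**Figure D2:**
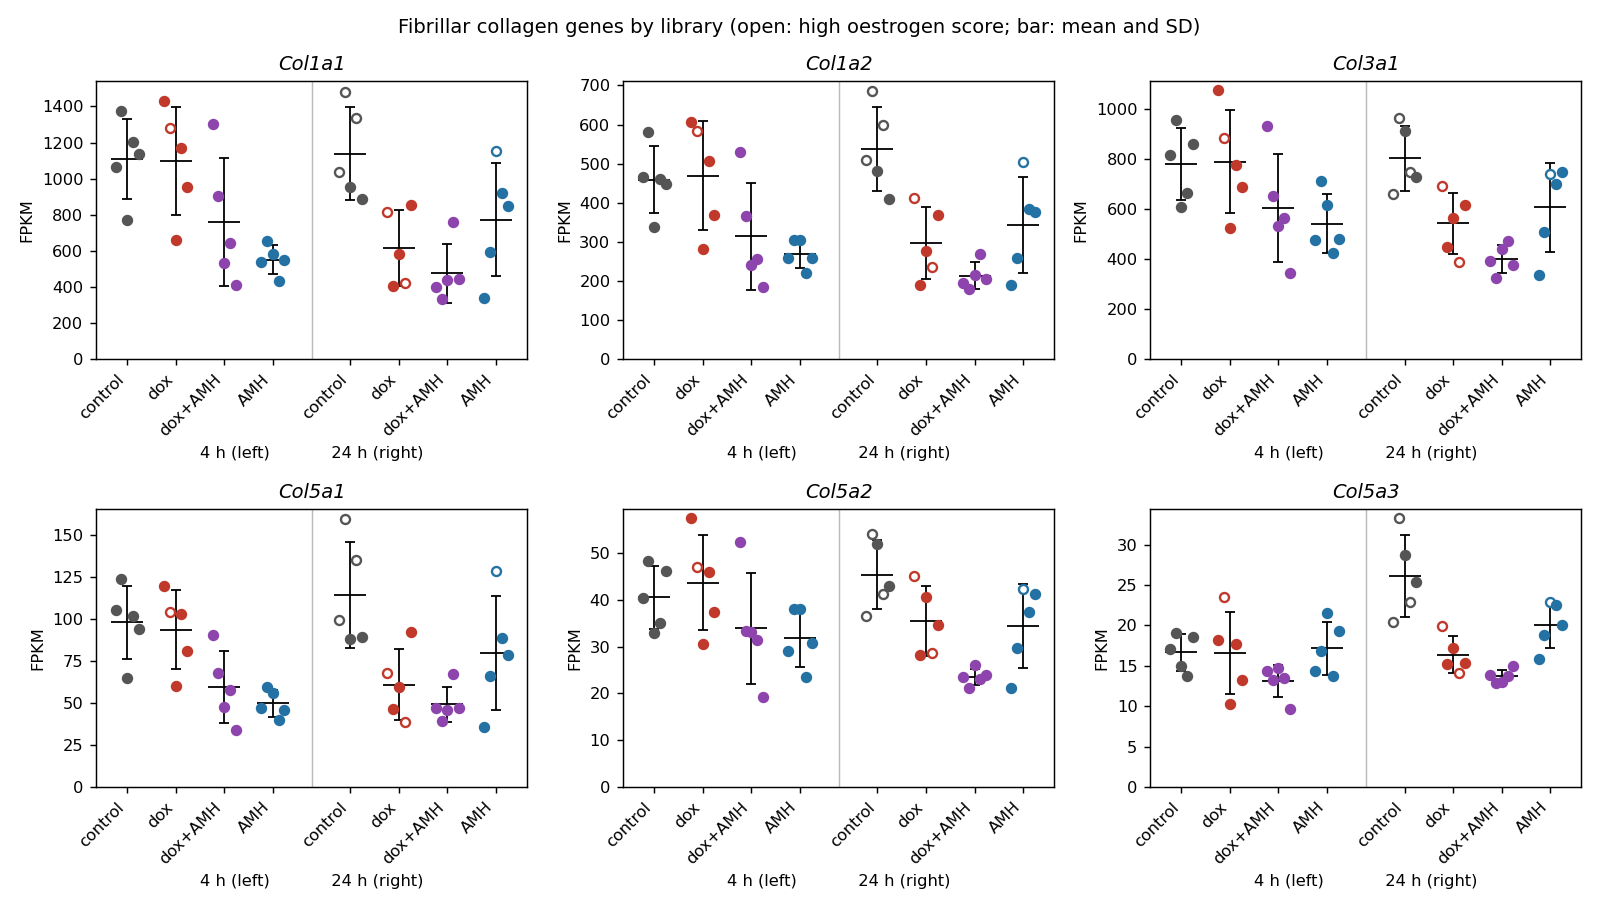
FPKM of 6 fibrillar collagen genes in each library, with 1 point per library, the mean and SD of 5 libraries as a bar, 4 h groups left and 24 h groups right of the grey line, and open points for high-oestrogen libraries. Col1a1, Col1a2 and Col5a1 lie lower in AMH than in control at 4 h, and all 6 lie lower in doxorubicin with AMH than in control at 24 h.

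Basement membrane genes gave calls in both directions. After AMH at 4 h, 3 of the 8 rose and none fell, all 3 of them type IV chains of restricted tissue distribution. Of all tested genes 9.13% were called higher and 10.9% lower there. Without the high-oviduct libraries none of the 3 kept its call (limma adjusted p = 0.093 for Col4a4, 0.059 for Col4a5 and 0.058 for Col4a6). Col4a5 (chrX:141475385-141689234) stood at 18.6, 25.4, 21.3, 18.5 and 18.3 FPKM in control and 29.9, 32.5, 31.1, 27.1 and 29.6 in AMH libraries, every AMH library being higher, and rose from 20.4 ± 3.05 to 30 ± 2.03 FPKM (log2 change 0.55, SE 0.17, limma adjusted p = 0.0239). Col4a6 (chrX:141165403-141474076), its partner in smooth muscle basement membranes, stood at 6.02, 10.7, 10.5, 9.1 and 9.53 FPKM in control and 13.1, 14.1, 13.8, 15.9 and 13.1 in AMH libraries, also without overlap, and rose (log2 change 0.58, SE 0.18, limma adjusted p = 0.0212). Col4a4 stood at 3.3, 3.18, 3.45, 2.8 and 3.66 FPKM in control and 5.03, 5.15, 4.81, 4.01 and 5.33 in AMH libraries and rose (log2 change 0.45, SE 0.16, limma adjusted p = 0.0395). Its partner Col4a3 was 2.7 ± 0.52 and 3.69 ± 0.578 FPKM (limma adjusted p = 0.186). The ubiquitous chains Col4a1 and Col4a2, which make up most type IV collagen, were lower after AMH without being called: Col4a1 was 125 ± 17 and 98.3 ± 13.2 FPKM, with a log2 change of -0.35 (limma adjusted p = 0.129). Col4a2 was 109 ± 11.8 and 81.9 ± 8.17 FPKM, with a log2 change of -0.40 (limma adjusted p = 0.066).

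At 24 h after doxorubicin the 2 ubiquitous type IV chains fell and no other basement membrane gene was called, where 9.95% of all tested genes were called lower. Col4a1 (chr8:11198423-11312826) stood at 142, 205, 154, 161 and 139 FPKM in control and 124, 118, 123, 79.9 and 121 in doxorubicin libraries (log2 change -0.50, SE 0.17, limma adjusted p = 0.0354). Col4a2 (chr8:11312805-11449287) stood at 113, 136, 115, 131 and 109.8 FPKM in control and 88.8, 85.3, 80.9, 56.8 and 96.9 in doxorubicin libraries (log2 change -0.58, SE 0.16, limma adjusted p = 0.0152). For both genes every doxorubicin library lay below every control library, and doxorubicin library 4 was the lowest. With AMH added, Col4a1 stood at 84.3, 77.3, 82.7, 88.8 and 75.7 FPKM (log2 change -0.95, SE 0.17, limma adjusted p = 0.000234) and Col4a2 at 64.2, 60.5, 69.1, 79 and 65 FPKM (log2 change -0.83, SE 0.16, limma adjusted p = 0.000534), both below all 24 h controls. Col18a1, whose protein yields the angiogenesis inhibitor endostatin, was called higher in this comparison (log2 change 0.67, SE 0.26, limma adjusted p = 0.0474). Its control libraries were split: libraries 1, 2 and 4, the high-oestrogen ones, stood at 24.7, 22.5 and 31.4 FPKM and libraries 3 and 5 at 70.2 and 56.6, against 70, 57.3, 69.9, 50.5 and 53 with doxorubicin and AMH. Without the high-oestrogen libraries the log2 change of Col18a1 was -0.08 (limma adjusted p = 0.94). Col18a1 was also called lower in control uteri at 24 h (41.1 ± 21.2 FPKM) than at 4 h (69.8 ± 10.8 FPKM; log2 change -0.88, SE 0.26, limma adjusted p = 0.0371). Its low 24 h values were those of the high-oestrogen libraries. Control libraries 3 and 5 at 24 h, at 70.2 and 56.6 FPKM, were near the 4 h range of 58.6 to 81.1 FPKM. Col15a1, a vascular and muscle basement membrane collagen, was called in no comparison and was 104 ± 24.4 FPKM in control and 72.7 ± 28.8 in doxorubicin uteri at 24 h (limma adjusted p = 0.0821).

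The type IV genes lie in head-to-head pairs. Col4a1 and Col4a2 overlap by 22 bases at their starts on chromosome 8, Col4a4 and Col4a3 are 71 bases apart on chromosome 1, and Col4a6 and Col4a5 are 1308 bases apart on the X chromosome. Within each pair the log2 changes after AMH at 4 h had the same sign: -0.35 and -0.40, 0.45 and 0.34, and 0.58 and 0.55. At 24 h after doxorubicin they were -0.50 and -0.58, 0.19 and 0.17, and 0.10 and -0.07. Whether counting used strand is not given in the sources used here, so reads from the shared start of Col4a1 and Col4a2 cannot be assigned to 1 of them.

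**Figure D3:**
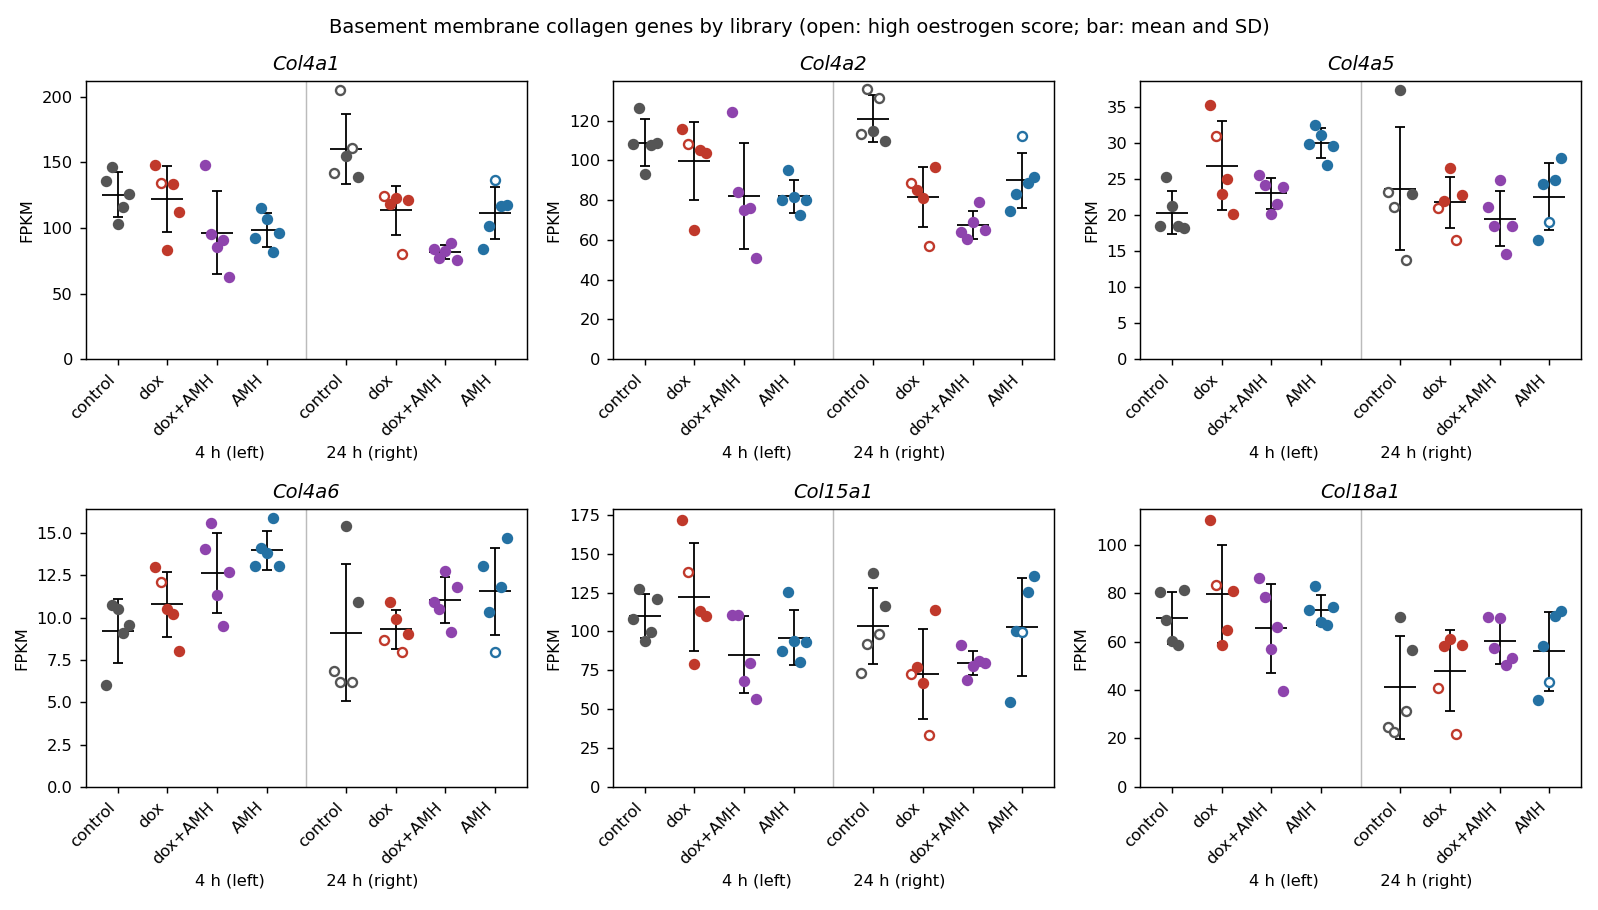
FPKM of 6 basement membrane collagen genes in each library, drawn as 1 point per library with the mean and SD of 5 libraries, 4 h groups left and 24 h groups right, open points marking high-oestrogen libraries. Col4a5 and Col4a6 lie higher in AMH than in control at 4 h, Col4a1 and Col4a2 lie lower in doxorubicin and doxorubicin with AMH at 24 h, and the low 24 h controls of Col18a1 are open points.

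Among the other types, type VI collagen had the largest decreases of the family. Col6a3 (chr1:90765923-90843971), the longest type VI chain, stood at 85.4, 111, 58.7, 103 and 69.9 FPKM in control and 31.5, 37.8, 33.2, 24.8 and 32.5 in AMH libraries 1 to 5 at 4 h. Every AMH library was below every control library, and Col6a3 fell from 85.6 ± 21.9 to 32 ± 4.68 FPKM (log2 change -1.37, SE 0.31, limma adjusted p = 0.00551). Col6a2 stood at 375, 391, 249, 365 and 337 FPKM in control and 189, 244, 217, 152 and 186 in AMH libraries, without overlap, and fell (log2 change -0.80, SE 0.27, limma adjusted p = 0.0358). Col6a1, which pairs with Col6a2, was 566 ± 63.1 and 418 ± 58.6 FPKM and was not called (log2 change -0.44, SE 0.20, limma adjusted p = 0.103). Col6a5 also fell, from 0.896 ± 0.26 to 0.471 ± 0.109 FPKM, at levels under 1 FPKM in most libraries: it reached 1 FPKM in 5 of 40, 1 of them a 4 h control, so its being tested rested on that library (limma adjusted p = 0.0365). The other alternative chains Col6a4 and Col6a6 had log2 changes of 0.02 and -0.22 and were not called in any comparison of treatments.

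At 24 h Col6a3 stood at 131, 177, 73.7, 169.8 and 85.1 FPKM in control and 50.6, 25.8, 33.7, 28.6 and 79.2 in doxorubicin libraries. Control libraries 1, 2 and 4, the high-oestrogen ones, held the 3 highest values, and doxorubicin library 5 lay within the range of the other control libraries. Col6a3 fell with doxorubicin (log2 change -1.57, SE 0.31, limma adjusted p = 0.00134) and with doxorubicin and AMH, where it stood at 25.4, 26, 24.4, 53.1 and 34.2 FPKM (log2 change -1.91, SE 0.31, limma adjusted p = 8.84e-05). Without the high-oestrogen libraries these log2 changes were -0.93 and -1.32 (limma adjusted p = 0.44 and 0.071). Col6a1 fell from 590.0 ± 33.5 FPKM in control to 394 ± 120.2 with doxorubicin and 353 ± 31.5 with doxorubicin and AMH (limma adjusted p = 0.0263 and 0.00593). Col6a2 fell from 333 ± 34 to 187 ± 82.5 and 177 ± 35.2 FPKM (limma adjusted p = 0.0192 and 0.0111). In AMH uteri at 24 h Col6a3 stood at 38.7, 55.6, 136, 63.8 and 59.1 FPKM, the value of 136 being that of the high-oestrogen library 3, and was not called (log2 change -0.88, SE 0.31, limma adjusted p = 0.146).

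The fibril-associated collagens split by gene. Col16a1 (chr4:130047840-130099283), made by smooth muscle and fibroblasts, stood at 54.3, 68.9, 61.1, 62.3 and 61.2 FPKM in control and 40.2, 44, 43.2, 41.3 and 42.7 in AMH libraries at 4 h and fell without overlap (log2 change -0.53, SE 0.16, limma adjusted p = 0.0197). At 24 h it stood at 61.3, 65.5, 62.4, 63.5 and 52.2 FPKM in control, 35.4, 24.7, 29.8, 27.8 and 50.7 with doxorubicin and 31.7, 30.7, 34.3, 41.8 and 38.3 with doxorubicin and AMH. Every treated library was below every control library, and the log2 changes were -0.88 and -0.77 (SE 0.16 each, limma adjusted p = 0.000593 and 0.000972). Col12a1, which coats type I fibrils in load-bearing tissue, fell from 2.75 ± 0.519 to 1.61 ± 0.166 FPKM after AMH at 4 h (log2 change -0.51, SE 0.17, limma adjusted p = 0.0325) and from 2.86 ± 0.833 to 1.78 ± 0.545 FPKM after doxorubicin with AMH at 24 h (limma adjusted p = 0.0311). Col14a1, a related fibril coat, fell from 22.6 ± 4.63 to 12 ± 2.41 FPKM in the latter comparison only (log2 change -0.86, SE 0.22, limma adjusted p = 0.00505), and the differences between comparisons were not tested. Col9a2 (chr4:121039385-121055322), a type IX chain best known from cartilage, rose after AMH at 4 h from 0.814, 1.84, 1.53, 1.47 and 1.31 FPKM to 3.57, 3.07, 3.66, 4.46 and 4.09 (log2 change 1.00, SE 0.22, limma adjusted p = 0.00537), with no overlap. Of 3 tested cartilage and bone markers none was called in that comparison, while after doxorubicin with AMH at 24 h Sp7 rose from 0.526 ± 0.323 to 1.77 ± 0.472 FPKM and Sox9 fell from 6.86 ± 4.08 to 2.43 ± 1.04 (limma adjusted p = 0.000488 and 0.00747). Of all tested genes 20.0% and 34.3% were called in these comparisons, and the part of the markers in the Col9a2 values was not tested. The other type IX genes, Col9a1 and Col9a3, were below the minimum. At 24 h Col9a2 was called higher with doxorubicin (2.87 ± 0.892 against 1.66 ± 1.25 FPKM, limma adjusted p = 0.043) and with doxorubicin and AMH (3.26 ± 0.927 FPKM, limma adjusted p = 0.00843), with log2 changes of 0.22 and 0.11 without the high-oestrogen libraries. Col20a1 rose from 1.4 ± 0.409 to 2.81 ± 0.515 FPKM after doxorubicin with AMH at 24 h (limma adjusted p = 0.00329), but a non-coding gene on the same strand, 9230112E08Rik, overlaps it at 3.11 FPKM, so its reads are uncertain.

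Of 3 tested membrane-spanning collagens, Col23a1 and Col13a1 were called higher and Col17a1 was not called. Col23a1 (chr11:51289920-51583918) stood at 1.63, 2.11, 1.71, 2.47 and 1.64 FPKM in control and 4.8, 4.77, 5.56, 4.32 and 3.84 in AMH libraries at 4 h, all AMH libraries being higher, and rose from 1.91 ± 0.369 to 4.66 ± 0.638 FPKM (log2 change 0.96, SE 0.31, limma adjusted p = 0.0284). At 24 h it stood at 0.628, 0.368, 3.53, 1.07 and 3.55 FPKM in control, 2.72, 6.7, 7.12, 4.26 and 4.2 with doxorubicin and 5.81, 5.52, 4.16, 4.98 and 5.61 with doxorubicin and AMH. The 3 low control values again were those of high-oestrogen libraries 1, 2 and 4, and AMH library 3 at 24 h, also high-oestrogen, was the lowest of its group at 1.09 FPKM. Col23a1 was called higher with doxorubicin (log2 change 1.21, SE 0.31, limma adjusted p = 0.0106) and with doxorubicin and AMH (log2 change 1.32, SE 0.31, limma adjusted p = 0.0028), and without the high-oestrogen libraries the log2 changes were 0.60 and 0.45 (limma adjusted p = 0.65 and 0.61). Col13a1, found at cell junctions, stood at 0.765, 0.385, 2.52, 0.646 and 1.85 FPKM in control and 2.88, 2.16, 3.12, 2.44 and 3.11 with doxorubicin and AMH at 24 h. It was called higher (log2 change 0.83, SE 0.22, limma adjusted p = 0.00534), with a log2 change of 0.23 without the high-oestrogen libraries (limma adjusted p = 0.71). Col17a1, the hemidesmosome collagen of stratified epithelia, varied from 0.341 to 30.4 FPKM over the 40 libraries. Col7a1, Col8a2 and Col26a1 were called in no comparison of treatments.

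**Figure D4:**
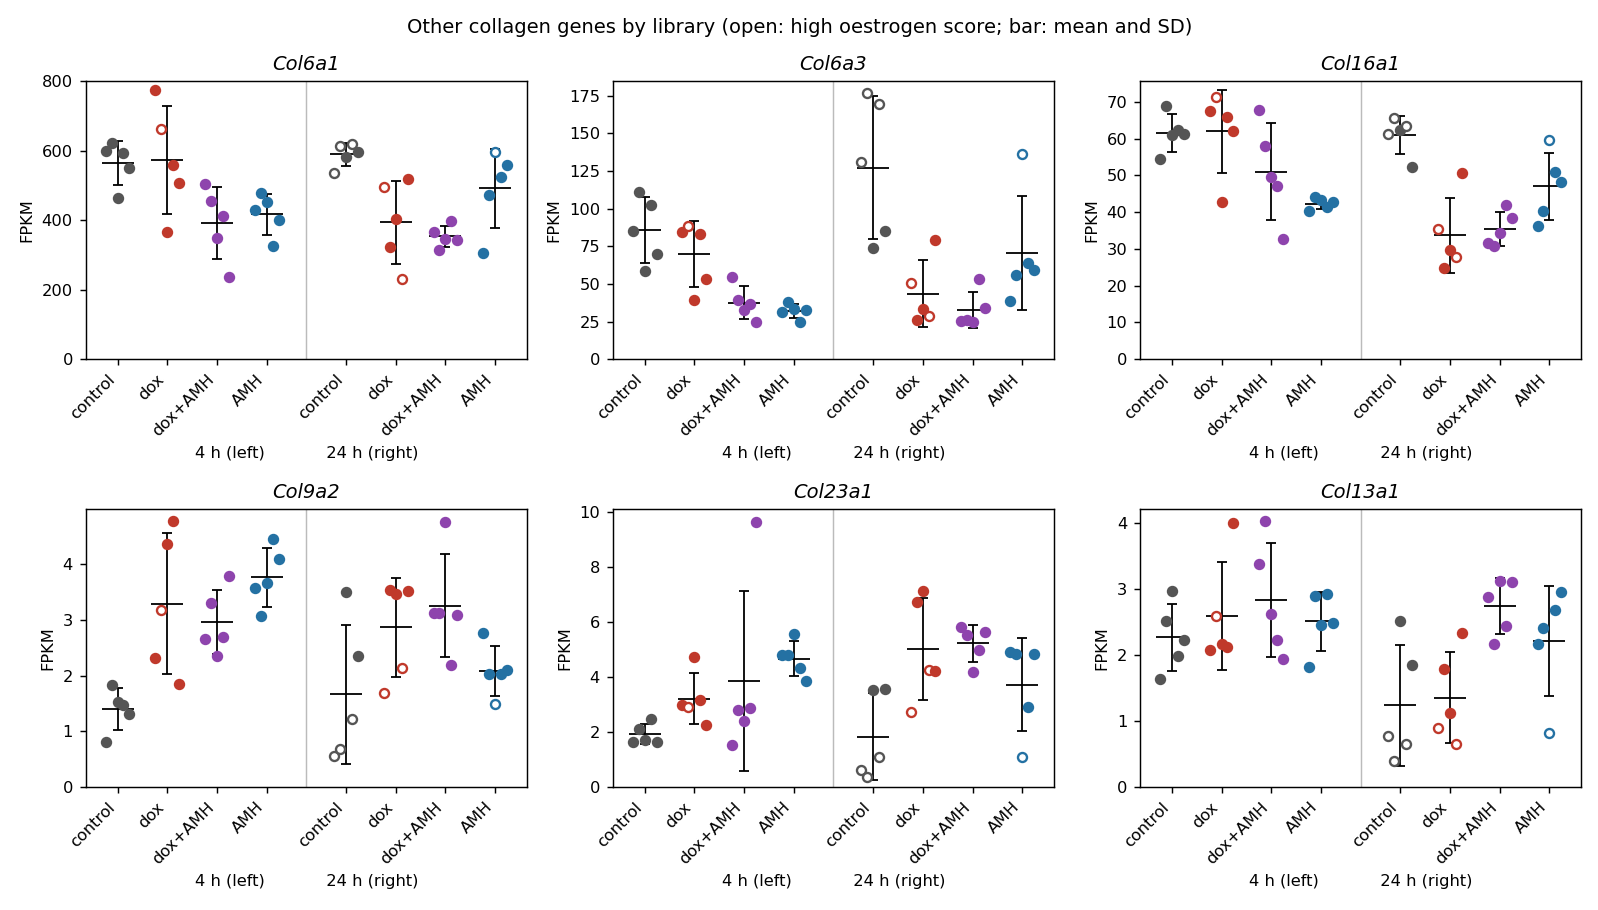
FPKM of 6 collagen genes of other types in each library, drawn as 1 point per library with the mean and SD of 5 libraries, 4 h groups left and 24 h groups right, open points marking high-oestrogen libraries. Col6a3 and Col16a1 lie lower and Col9a2 and Col23a1 higher in AMH than in control at 4 h, and at 24 h the open control points are the highest for Col6a3 and the lowest for Col9a2, Col23a1 and Col13a1.

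These counts moved with the libraries used. After AMH at 4 h the count of 13 became 6, 5 and 7 without control libraries 1, 2 and 4 and 8 without AMH library 1, 3 or 4, it was 13 with voom on rebuilt reads, and neither group held a high-oestrogen library. Leaving out the high-oviduct libraries gave 9, which includes a member not called with all libraries. Col4a4, Col4a5, Col4a6, Col6a5 and Col12a1 lost their calls there with log2 changes of 0.41, 0.51, 0.58, -0.29 and -0.51 (limma adjusted p from 0.058 to 0.11). The AMH group had the lower oestrogen-responsive score (3.78 ± 0.182 against 4.46 ± 0.22), and 1 of 31 genes of that list rose and 6 fell. Of the same list 3 rose and 2 fell after doxorubicin at 24 h, and 3 rose and 16 fell after doxorubicin with AMH. Of all tested genes 20.0% were called after AMH at 4 h, 18.4% after doxorubicin at 24 h and 34.3% after doxorubicin with AMH at 24 h. At 24 h after doxorubicin the count of 12 became 3 and 6 without control libraries 2 and 4, 5 without doxorubicin library 2 or 4, 5 without the high-oviduct libraries, and 0 both without the high-oestrogen libraries, which leaves 2 control and 3 doxorubicin libraries, and with only these 2 groups in the fit. Without the high-oestrogen libraries the log2 changes were -0.65 for Col1a1, -0.72 for Col1a2, -0.48 for Col5a1, -0.73 for Col5a3, -0.28 for Col4a1, -0.36 for Col4a2, -0.53 for Col6a1, -0.71 for Col6a2 and -0.75 for Col16a1 (limma adjusted p from 0.11 to 0.8). Without the high-oviduct libraries, which leaves 2 doxorubicin libraries, Col4a2, Col5a1, Col6a2, Col6a3 and Col16a1 were called, with log2 changes of -0.47, -0.98, -0.92, -1.70 and -1.015. The members that lost their calls there were Col1a1 (-0.96), Col1a2 (-0.91), Col4a1 (-0.39), Col5a3 (-0.54), Col6a1 (-0.56), Col9a2 (0.51) and Col23a1 (1.11), with limma adjusted p from 0.052 to 0.21. For doxorubicin with AMH at 24 h the count of 19 was 17 to 21 with any 1 library left out, 19 without the high-oviduct libraries and 1 without the high-oestrogen libraries, which leaves 2 control libraries. Col5a3 kept its call there (log2 change -0.93, limma adjusted p = 0.0094). The other type I, III and V chains had log2 changes of -1.01 for Col1a1, -1.07 for Col1a2, -1.03 for Col3a1, -0.86 for Col5a1 and -0.98 for Col5a2 (limma adjusted p from 0.074 to 0.25), against -1.29, -1.32, -0.99, -1.18 and -0.91 with all libraries. Those of Col4a1 and Col4a2 were -0.84 and -0.73 (limma adjusted p = 0.053 and 0.089), of Col6a1, Col6a2, Col14a1 and Col16a1 -0.74, -0.83, -0.78 and -0.68 (limma adjusted p from 0.15 to 0.34), and of Col12a1 and Col20a1 -0.29 and 0.43 (limma adjusted p = 0.62 and 0.42). Scaling to reads in genes shifted the median of all genes in this comparison from -0.00473 to 0.108 (log2) and the split of all called genes from 2555 higher and 3011 lower to 3847 and 1672, and 5 members were then higher and 13 lower. For doxorubicin at 24 h that split went from 1369 and 1615 to 2279 and 646, and 2 members were then higher and 8 lower.

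Markers of the cells that make collagen moved unequally with these results. All 10 smooth muscle markers fell at 24 h after doxorubicin and 9 of 10 after doxorubicin with AMH, and their score was 7.04 ± 0.213 in control, 6.18 ± 0.294 with doxorubicin and 6.32 ± 0.107 with doxorubicin and AMH. Their summed level ranged from 3542 to 5583 FPKM in control, from 1679 to 2816 with doxorubicin and from 2218 to 2618 with doxorubicin and AMH, and no marker was at 0. After AMH at 4 h, 1 smooth muscle marker (Myocd) rose and 2 (Cnn1 and Actg2) fell, with scores of 6.62 ± 0.164 in control and 6.47 ± 0.0805 in AMH uteri. Of 9 stromal fibroblast markers none was called after AMH at 4 h and 1 (Vim) rose after doxorubicin at 24 h, and their score was 5.92 ± 0.545 in control and 6.22 ± 0.311 with doxorubicin. After doxorubicin with AMH at 24 h, 2 of these 9 rose and 1 fell. Of 7 endothelium markers, 2 rose after doxorubicin and 5 after doxorubicin with AMH at 24 h, and none fell. After AMH at 4 h, 2 of 4 mesothelium markers (Lrrn4 and Upk3b) fell, and their score was 3.69 ± 0.586 in control and 2.63 ± 0.701 in AMH uteri. Of all tested genes 20.0% were called after AMH at 4 h, 18.4% after doxorubicin at 24 h and 34.3% after doxorubicin with AMH at 24 h. Marker values are given with all libraries only, and 3 of the control libraries at 24 h are high-oestrogen. The part of these cell types in the collagen results was not tested.

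No collagen gene was called in the remaining comparisons of treatments. Doxorubicin against control at 4 h called 0 of 34 members (3 at an unadjusted p under 0.05), where 0.493% of all tested genes were called (0.388% higher, 0.105% lower). The smallest adjusted p was that of Col9a2, at 3.3 ± 1.27 against 1.39 ± 0.375 FPKM (log2 change 0.81, SE 0.22, limma adjusted p = 0.0879), and Col9a2 passed without doxorubicin library 5 or without the high-oestrogen libraries (limma adjusted p = 0.032 in each). Col1a1, at 1109.9 ± 221 FPKM in control and 1099 ± 300.3 with doxorubicin at 4 h, and Col6a1, at 566 ± 63.1 and 574 ± 155, differed by less than 1 SD. AMH against control at 24 h called 0 (14 unadjusted), where 0.462% of all tested genes were called. All 9 tested fibrillar genes had a log2 change below 0 (-0.70 to -0.03), and Col1a1 was 772 ± 313 against 1139 ± 257 FPKM (log2 change -0.65, SE 0.29, limma adjusted p = 0.225). Without AMH library 3, which stood at 1155 FPKM for Col1a1 against 340.1 to 920.2 in the others, 8 members were called in this comparison, and without control library 3, 5 were. AMH library 3 is the only high-oestrogen library of its group. Control libraries 1, 2 and 4 are high-oestrogen and control library 3 is not. The count without all of these high-oestrogen libraries is not given. Doxorubicin with AMH against control at 4 h called 0 (12 unadjusted), where 0.394% of all tested genes were called. In that comparison Col6a3 stood at 54.7, 39.3, 32.6, 36.9 and 24.4 FPKM, below all controls, with log2 change -1.18, SE 0.31, limma adjusted p = 0.0756.

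Whether AMH altered the response to the drug needs all 4 treatments and was not tested. The comparison of doxorubicin with AMH against doxorubicin gives the effect of AMH in doxorubicin-treated uteri, its own effect included, and uses no control library. It called 0 members at 4 h (11 unadjusted), where 0.00616% of all tested genes were called, and 0 at 24 h (4 unadjusted), where 0.333% were. At 4 h 28 of 34 members had a log2 change below 0, with a median of -0.30 against 0.01 for all tested genes. Col1a1 then stood at 1431, 1281, 661, 1167 and 955 FPKM with doxorubicin and 1300.4, 905, 532, 642 and 413 with doxorubicin and AMH, ranges that overlapped widely (log2 change -0.60, SE 0.29, limma adjusted p = 0.713). At 24 h Col13a1 stood at 0.892, 1.79, 1.12, 0.645 and 2.33 FPKM with doxorubicin and 2.88, 2.16, 3.12, 2.44 and 3.11 with doxorubicin and AMH. Only doxorubicin library 5 reached the range of the combined group (log2 change 0.71, SE 0.22, limma adjusted p = 0.151), and Col13a1 passed without that library (limma adjusted p = 0.046). Col5a2 was 35.4 ± 7.43 and 23.5 ± 1.79 FPKM at 24 h (log2 change -0.55, SE 0.19, limma adjusted p = 0.237), and Col4a1 was 113 ± 18.8 and 81.8 ± 5.31 FPKM (log2 change -0.45, SE 0.17, limma adjusted p = 0.263). Over the 5 comparisons without calls, voom on rebuilt reads called 0 members in each. Array weights, which give less weight to libraries that deviate, called 1 for doxorubicin at 4 h, 11 for AMH at 24 h, 11 for doxorubicin with AMH against control at 4 h, and 0 at 4 h and 6 at 24 h for AMH added to doxorubicin.

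Whether an effect differed between the times was tested directly. The doxorubicin effect at 24 h minus that at 4 h called 0 of 34 members (9 unadjusted), where 0.0123% of all tested genes were called, and the AMH effect at 24 h minus that at 4 h called 0 (3 unadjusted), where 0.154% were (0.0247% higher, 0.129% lower). Calls at 1 time and not at the other are not shown to differ between the times, where voom called 0 members for both differences. Array weights called 2 members for the doxorubicin difference and 0 for the AMH difference. Without the high-oviduct libraries 1 was called for the doxorubicin difference, and without the high-oestrogen libraries 1 for the AMH difference. Between the control groups themselves, 24 h against 4 h, 3 members were called, where 7.32% of all tested genes were (4.28% higher, 3.04% lower): Col5a3 and Col11a2 (0.358 ± 0.0811 to 0.892 ± 0.244 FPKM) rose and Col18a1 fell. The low 24 h values of Col18a1 were those of the high-oestrogen control libraries 1, 2 and 4. Col11a2 reached 1 FPKM in 6 libraries, 3 of them 24 h controls, so it met the minimum only through the group in which it was higher and its call is no support. That count was 1 without control 4 h library 1, 2, 3 or 5 or control 24 h library 2 or 4, and 0 with only the control groups in the fit.

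Chains of 1 collagen type can assemble into 1 molecule, which does not hold for Col3a1 and Col1a1, chains of different types. No set ratio is assumed, since a chain such as Col6a4 can take the place of Col6a3. In all, 6 ratios of chain levels were compared over 8 comparisons of treatments (48 exact two-sided permutation tests of 5 against 5 libraries, smallest possible p 0.0079). None of the 48 passed after Benjamini-Hochberg adjustment (smallest adjusted p 0.063), 15 had an unadjusted p under 0.05 and 6 were at the smallest p the arrangements allow. The ratio of Col6a3 to Col6a1 was -2.76 ± 0.24 in control and -3.71 ± 0.06 in AMH uteri at 4 h on the log2 scale, a fold of 0.517 (exact permutation p = 0.0079, 0.063 adjusted). It was -3.38 ± 0.14 with doxorubicin and AMH at 4 h, a fold of 0.648 with the same p-values. These ranges did not overlap the control range of -2.98 to -2.49. After AMH at 4 h the ratio of Col5a1 to Col5a2 was 0.65 ± 0.08 against 1.26 ± 0.24 in control, that of Col6a2 to Col6a1 -1.09 ± 0.08 against -0.73 ± 0.09, that of Col1a1 to Col1a2 1.03 ± 0.07 against 1.27 ± 0.09, and that of Col3a1 to Col1a1 -0.03 ± 0.14 against -0.50 ± 0.21 (exact permutation p = 0.0079 and 0.063 adjusted for each). The ratio of Col4a2 to Col4a1 was -0.26 ± 0.09 against -0.20 ± 0.08 (exact permutation p = 0.30, 0.44 adjusted). Within a library a ratio does not depend on its scaling, and it shows unequal change of 2 chains, not which of them changed.

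**Figure D5:**
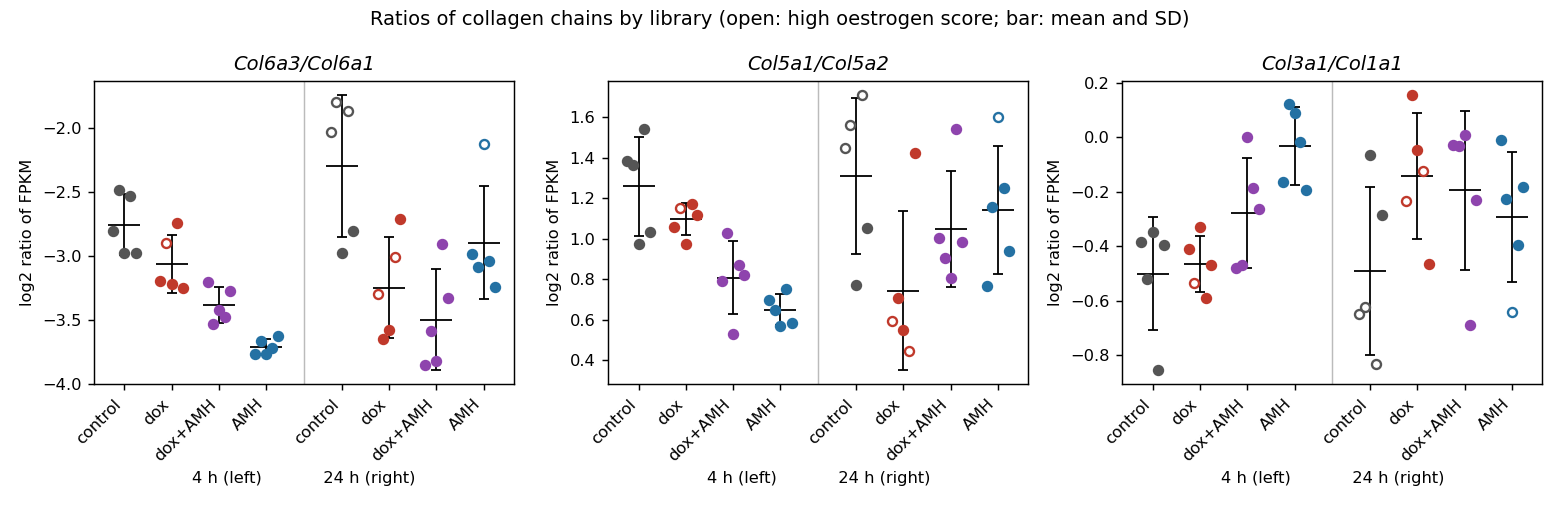
Log2 ratio of FPKM between 2 collagen chains in each library, with 1 point per library and the mean and SD of 5 libraries, for 3 of the 6 ratios tested, open points marking high-oestrogen libraries. At 4 h the AMH libraries lie below the control libraries for Col6a3/Col6a1 and Col5a1/Col5a2 and above them for Col3a1/Col1a1, while the 24 h groups overlap more.

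Enzymes and chaperones of collagen synthesis, which hydroxylate and fold the chains in the endoplasmic reticulum, had more calls lower than higher in the same 3 comparisons. Of 22 tested genes of this list, 1 rose and 15 fell after AMH at 4 h (median log2 change -0.50), 10 fell after doxorubicin at 24 h (median -0.42) and 13 after doxorubicin with AMH at 24 h (median -0.48). Of all tested genes, 10.9%, 9.95% and 18.6% were called lower in these comparisons. This list and those below are given with all libraries only, and 3 of the control libraries at 24 h are high-oestrogen. Serpinh1, the collagen-specific chaperone HSP47, fell from 826 ± 187 to 273 ± 47.7 FPKM after AMH at 4 h (limma adjusted p = 0.00322) and from 769 ± 229.9 to 403 ± 240.4 FPKM after doxorubicin at 24 h (limma adjusted p = 0.0215). P4ha2, a subunit of prolyl 4-hydroxylase, fell from 9.88 ± 2.29 to 4.04 ± 0.682 FPKM after AMH at 4 h, and P4hb, the shared subunit of that enzyme, from 352 ± 53.7 to 208 ± 14.9 (limma adjusted p = 0.0056 and 0.00607). Plod2, the lysyl hydroxylase that acts on telopeptides for cross-linking, was the 1 gene of the list called when AMH was added to doxorubicin (24 h), falling from 18.8 ± 4.63 to 8.84 ± 1.74 FPKM (limma adjusted p = 0.0226). It also fell after AMH alone at 24 h, from 28.7 ± 5.98 to 16.1 ± 7.78 FPKM (limma adjusted p = 0.0455).

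Genes of collagen maturation, which trim propeptides and cross-link fibrils, gave 2 that rose and 6 that fell of 16 tested after AMH at 4 h, 1 and 7 after doxorubicin at 24 h, and 2 and 7 after doxorubicin with AMH at 24 h. These comparisons called 20.0%, 18.4% and 34.3% of all tested genes. The cross-linking oxidase Loxl2 was called in 5 comparisons with control: after AMH it fell from 19.8 ± 4.31 to 12.5 ± 2.93 FPKM at 4 h and from 32.8 ± 6.05 to 18.4 ± 6.03 FPKM at 24 h (limma adjusted p = 0.0158 and 0.0295). It fell to 17.9 ± 4.02 FPKM with doxorubicin at 24 h, and to 10.2 ± 1.8 and 13.1 ± 2.23 FPKM with doxorubicin and AMH at 4 h and 24 h (limma adjusted p = 0.00271, 0.0193 and 2.29e-05). Loxl1 fell from 48.5 ± 8.77 to 25.5 ± 5.04 FPKM after AMH at 4 h, and the procollagen N-proteinase Adamts2 from 29.1 ± 11.7 to 10 ± 2.84 FPKM after doxorubicin with AMH at 24 h (limma adjusted p = 0.00507 and 0.000162). Proteoglycans on fibrils gave 1 that rose (Prelp) and 1 that fell (Fmod) of 9 tested after AMH at 4 h, and 1 that fell (Ogn) after doxorubicin at 24 h. Of all tested genes 20.0% and 18.4% were called there. After doxorubicin with AMH, Ogn was the 1 call at 4 h, falling from 82.2 ± 13.2 to 41.3 ± 2.99 FPKM (limma adjusted p = 0.00868), and at 24 h Podn rose and Ogn, Aspn and Lum fell. The shares of all tested genes called were 0.394% at 4 h and 34.3% at 24 h.

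The list of collagen breakdown and uptake holds proteases and their inhibitors, and gave 4 that rose and 1 that fell of 18 tested after doxorubicin at 24 h, 7 and 2 after doxorubicin with AMH at 24 h, and 1 each after AMH at 4 h. These comparisons called 18.4%, 34.3% and 20.0% of all tested genes. Mmp11, stromelysin-3, rose from 10.6 ± 1.96 to 32.1 ± 6.05 FPKM after AMH at 4 h and from 10.3 ± 7.02 to 23.8 ± 6.11 FPKM after doxorubicin at 24 h (limma adjusted p = 0.00679 and 0.0125). The 24 h controls include 3 high-oestrogen libraries, and values without these are not given for this list. Mmp3, stromelysin-1, rose from 2.51 ± 0.726 to 7.22 ± 3.3 FPKM after doxorubicin at 24 h, and the protease inhibitor Timp1 fell from 9.02 ± 2.99 to 3.21 ± 0.62 FPKM after AMH at 4 h (limma adjusted p = 0.00134 and 0.0168). Other inhibitors rose: Timp4 from 0.0379 ± 0.051 to 2 ± 1.28 FPKM after doxorubicin at 24 h, and Timp3 from 23.8 ± 8.99 to 36.1 ± 4.56 FPKM after doxorubicin with AMH at 24 h (limma adjusted p = 0.0233 and 0.0117). Timp4 was far below the minimum of 1 FPKM in the 24 h controls, so its being tested rested on other groups and its call is no support. The doxorubicin 24 h group also holds 3 high-oviduct libraries. The collagen-degrading proteases Fap and Ctsk fell after doxorubicin with AMH at 24 h, Ctsk from 38 ± 6.27 to 19.6 ± 1.8 FPKM and Fap from 2.82 ± 0.715 to 1.21 ± 0.139 FPKM, and Fap also fell after doxorubicin (limma adjusted p = 0.00211, 0.00105 and 0.0186). Of 15 tested partners of type IV collagen in basement membranes, the laminin chains Lamb2 (47.2 ± 5.42 to 64.5 ± 3.54 FPKM) and Lama3 (4.26 ± 0.778 to 8.61 ± 1.12 FPKM) rose after AMH at 4 h and none fell, in a comparison that called 20.0% of all tested genes (limma adjusted p = 0.0122 and 0.0127). Lamc1 fell from 55 ± 8.07 to 39.6 ± 4.69 FPKM after doxorubicin at 24 h (limma adjusted p = 0.00426). It was the only call of that list there, where 18.4% of all tested genes were called. After doxorubicin with AMH at 24 h, 1 of the 15 rose (Lamc3) and 4 fell, among them Lamc1, Pxdn and Lamb1, where 34.3% of all tested genes were called.

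Of 9 tested collagen receptors, the integrin chains Itga10 and Itga11 rose after AMH at 4 h, where 20.0% of all tested genes were called. Itga11 rose from 0.865 ± 0.183 to 2.65 ± 0.808 FPKM (limma adjusted p = 0.016). Itgb1, the shared partner of Itga10 and Itga11, fell from 210.5 ± 23.5 to 161 ± 11.3 FPKM after doxorubicin at 24 h and to 163 ± 15.6 FPKM after AMH at 24 h (limma adjusted p = 0.00509 and 0.0466). In the TGF-beta axis, which is known to drive collagen transcription, 2 of 16 tested genes rose and none fell after AMH at 4 h, where 20.0% of all tested genes were called. Ctgf, a matrix protein induced by TGF-beta, rose from 5.17 ± 0.787 to 17.5 ± 1.88 FPKM in that comparison, in which Col1a1, Col1a2 and Col5a1 fell (limma adjusted p = 0.000233). After doxorubicin at 24 h, where 18.4% of all tested genes were called, 4 of the 16 rose and 1 fell. Tgfb3 rose from 15.7 ± 6.24 to 21.5 ± 2.78 FPKM and Smad2 fell from 12.3 ± 2.81 to 8.32 ± 1.4 FPKM (limma adjusted p = 0.0463 and 0.0194). After doxorubicin with AMH at 24 h, 3 of the 16 rose, among them Smad3 and Tgfb3, and 3 fell, among them Smad2 and Tgfbr1. That comparison called 34.3% of all tested genes.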

How the data were processed

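Uterus RNA was sequenced in bulk in 40 libraries, 5 in each of 8 groups. The authors deposited a table of gene FPKM with gene length, position and biotype, on build mm10 per the submitters' processing notes; for the aligner, the counter and the use of strand, the entry is "not given in the sources used here". The deposited FPKM values are already divided by median-of-ratios size factors (the divisor was 0.859 to 1.06 times the reads in genes), so levels are relative to those factors. Whole reads were recovered from FPKM, gene length and the smallest step (100% whole, tolerance 0.01).

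Tests used limma 3.58.1 (R 4.3.3) on log2(FPKM + 1) with a trended prior, all 8 groups in 1 fit, 16226 genes tested and Benjamini-Hochberg adjustment over all of them in each of 11 comparisons. Chain ratios used exact permutation tests. The fit was tested on simulated data. Named genes were a set of 14 core chains plus every other member called in a comparison of treatments at 1 time, and for other lists up to 4 called genes with the smallest p. The members and lists were chosen with earlier results of these data known. Alternatives were another pseudocount, other minimums, other scalings, only the groups compared, array weights, a replicate block, voom on rebuilt reads, and libraries left out.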

Additional observations from a re-analysis of the deposited data

Results flagged for a closer look

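In groups of 5 libraries, 1 library stood apart from the other 4 (Dixon's test at 95%) in 11 of 192 combinations of 24 collagen genes and 8 groups, or 5.73%, where chance gives about 1 in 20. Doxorubicin with AMH library 4 at 24 h stood high for Col1a1, at 759 FPKM against 333 to 443 in the others, and for Col5a1, at 67.2 against 39.5 to 47.1. Doxorubicin library 4 at 24 h stood low for Col4a1, at 79.9 FPKM against 118 to 124, and doxorubicin library 3 at 4 h for Col4a2, at 65.2 against 104 to 116. Doxorubicin library 5 at 4 h stood low for Col4a4, at 2.06 FPKM against 3.94 to 4.47, and high for Col13a1, at 3.99 against 2.08 to 2.59. Doxorubicin with AMH library 5 at 4 h stood low for Col5a3, at 9.66 FPKM against 13.3 to 14.7, and high for Col23a1, at 9.63 against 1.53 to 2.88. AMH library 3 at 24 h stood high for Col6a3, at 136 FPKM against 38.7 to 63.8. Doxorubicin library 1 at 4 h stood high for Col6a5, at 0.965 FPKM against 0.754 to 0.79, and doxorubicin library 1 at 24 h for Col14a1, at 23.5 against 12.4 to 15.4.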

How the results depend on the processing

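Of the counts under the alternatives run, 254 stayed within 1.5 times and 37 moved. The 254 include counts of 0 that stayed at 0, so they do not measure the stability of the calls. Apart from leaving out 1 library, the alternatives gave 0 to 14 members for doxorubicin at 24 h and 9 to 22 for AMH at 4 h. They gave 1 to 24 for doxorubicin with AMH against control at 24 h. Among single genes 3677 values kept direction and side of the threshold, 67 passed it newly, 167 no longer passed it and 1 reversed. With only the groups compared in the fit, the counts were 0 for doxorubicin at 24 h, 20 for AMH at 4 h, 2 for doxorubicin with AMH against control at 4 h and 0 between the controls. With array weights they were 1 for doxorubicin at 4 h, 6 for AMH added to doxorubicin at 24 h, 22 for AMH at 4 h, 11 for AMH at 24 h, 11 for doxorubicin with AMH against control at 4 h and 2 for the difference of doxorubicin effects. Without the high-oestrogen libraries they were 1 for doxorubicin at 4 h, 0 for doxorubicin at 24 h, 1 for doxorubicin with AMH against control at 24 h and 1 for the difference of AMH effects, and Col18a1 in doxorubicin with AMH against control at 24 h reversed to -0.0802. Without the high-oviduct libraries they were 5 for doxorubicin at 24 h and 1 for the difference of doxorubicin effects. These sets leave fewer libraries; the cause of the other changes was not tested.

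With each library left out in turn, the count ranged from 0 to 1 for doxorubicin at 4 h (1 without doxorubicin library 5), 3 to 13 for doxorubicin at 24 h, 0 to 1 for AMH added to doxorubicin at 24 h (1 without doxorubicin library 5), 5 to 13 for AMH at 4 h, 0 to 8 for AMH at 24 h, 17 to 21 for doxorubicin with AMH against control at 24 h, 1 to 4 between the controls and 0 to 1 for the difference of doxorubicin effects (1 without doxorubicin 24 h library 5). The split of all called genes between the controls was 695 higher and 493 lower, and 347 and 697 with scaling to reads in genes. Deviations from the group mean in libraries with the same replicate number had correlations of -0.715 to 0.388. In 0 of 8 comparisons did all 5 pairs exceed 0.1, and in some 3 of 5 did. Pairs of different number were not compared, so shared deviation is not excluded. The replicate block gave 12 calls for doxorubicin at 24 h and 13 for AMH at 4 h. It gave 18 for doxorubicin with AMH against control at 24 h, 3 between the controls and 0 elsewhere. For the chain ratios, 5 pairs of libraries cannot give a p under 0.05, so the block says nothing about them. Members near 1 FPKM, such as Col6a5 and Col11a2, rest on few reads.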
